A study of Mus musculus with 4 samples.

Results

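The CXCR3 and CXCR6 chemokine axes were followed here through 5 genes chosen by symbol, the ligands Cxcl9, Cxcl10 and Cxcl16 and the receptors Cxcr3 and Cxcr6, out of 31053 genes in the deposited tables. The cells came from mouse lungs that carried an orthotopic small cell lung cancer (SCLC), digested whole and sorted for live cells. The groups were mice given anti-PD-1 (clone 29F.1A12, 200 µg per mouse on Monday, Wednesday and Friday), mice given YKL-5-124 (10 mg/kg on weekdays, an inhibitor of the kinase CDK7), mice given both agents (the combination), and control mice given vehicle with isotype IgG. Each group was 1 library of single-cell 3' RNA, so every treated-against-control value below compares 1 library with 1 library. No test of a treatment was possible, and all intervals cover counting error only. The sources used here do not give the number, age or strain of the animals behind a library, or the tumour line.

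CXCR3 is a G protein-coupled receptor carried by activated and memory T cells and NK cells. Its ligands CXCL9 and CXCL10 are induced in myeloid, stromal and tumour cells by interferon gamma, CXCL10 also by type I interferon and NF-kappa B, and they draw CXCR3-bearing lymphocytes into tissue. CXCR6 marks tissue-resident and effector lymphocytes. Its only known ligand, CXCL16, is made as a membrane-anchored protein by dendritic cells and macrophages, also acts as a scavenger receptor, and can be shed by the protease ADAM10.

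Cxcl9 (ENSMUSG00000029417) and Cxcl10 (ENSMUSG00000034855) are neighbours on the minus strand of chromosome 5 (GENCODE release M21, GRCm38). Cxcl9 spans 92321347 to 92328079 and Cxcl10 spans 92346638 to 92348889, with 18558 bases between them. Cxcl16 (ENSMUSG00000018920) lies at 70453983 to 70459984 on the minus strand of chromosome 11. Cxcr3 (ENSMUSG00000050232) lies at 101731535 to 101734269 on the minus strand of chromosome X, and Cxcr6 (ENSMUSG00000048521) at 123806475 to 123811760 on the plus strand of chromosome 9. Genes on the opposite strand overlap Cxcl10 (Art3), Cxcl16 (Zmynd15) and Cxcr6 (Fyco1). The sources used here do not say whether counting used strand, so reads of these pairs could be shared.

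The promoters of Cxcl9 and Cxcl10 are shown because the 2 genes are neighbours and some cells of the combination, described below, held many UMIs of both. They run from 250 bases before to 50 after the start of each gene, 5' to 3' on the gene's strand (RefSeq, GRCm38.p6), at chr5:92328030-92328329 for Cxcl9 and chr5:92348840-92349139 for Cxcl10. Capitals mark matches, on either strand, to a kappa B motif (GGGNNTTCC) or an interferon-stimulated response element (GAAA, any 2 bases, GAAA).
Cxcl9: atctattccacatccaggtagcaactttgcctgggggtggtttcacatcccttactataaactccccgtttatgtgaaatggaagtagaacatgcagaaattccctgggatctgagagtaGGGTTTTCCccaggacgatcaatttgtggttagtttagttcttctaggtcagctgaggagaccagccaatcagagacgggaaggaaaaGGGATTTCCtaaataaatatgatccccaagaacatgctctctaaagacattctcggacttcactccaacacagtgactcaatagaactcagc
Cxcl10: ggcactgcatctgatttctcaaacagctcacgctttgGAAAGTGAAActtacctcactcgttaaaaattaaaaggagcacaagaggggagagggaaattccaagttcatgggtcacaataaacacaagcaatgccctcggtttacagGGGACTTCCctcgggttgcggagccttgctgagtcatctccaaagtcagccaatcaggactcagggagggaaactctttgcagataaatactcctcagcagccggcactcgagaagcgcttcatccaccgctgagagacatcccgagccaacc
The Cxcl9 window held 2 kappa B matches, at -130 to -122 and at -42 to -34 from the start. The Cxcl10 window held 1 match to the response element, at -213 to -204, and 1 kappa B match, at -103 to -95. Among 32851 promoters of the same length, 3.44% held the response element and 5.82% the kappa B motif. A search for a gamma-activated site (TTCNNNGAA, in 8.30% of promoters) found no match in either window. The matches describe letters and are not evidence of a bound factor.

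Library depth ran from 17329001 UMIs (anti-PD-1) to 22950622 UMIs (combination), and 2676, 4014, 3911 and 3384 cells were kept in the anti-PD-1, YKL-5-124, combination and control libraries. Lineages were gated on markers that included none of the 5 genes. In each library at least 6 markers of every lymphoid, myeloid and tumour lineage named below had UMIs, and their summed level was several-fold higher inside the gate than outside. Cell barcodes recurred between libraries, and 404 barcodes passed the cell filters in all 4 libraries, and each pair of libraries shared between 429 and 507. The shared barcodes were mostly in the tumour gate, where they made up 399 of 702 anti-PD-1, 347 of 776 YKL-5-124, 356 of 664 combination and 395 of 852 control cells. The copy with the most UMIs had a median of 27114 to 31560 UMIs across libraries, and the other copies had medians of 843 to 866. Of T cells, 17 of 632, 8 of 755, 17 of 1060 and 13 of 909 carried a shared barcode, and the Cxcl10 and Cxcl16 levels of tumour cells are given below with and without these cells. Other tumour values include them.

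Cxcl16, Cxcr3 and Cxcr6 were each concentrated in a set of lineages, in every library. Cxcl16 was highest in dendritic cells, with C1q-positive macrophages below them, and T cells, group 2 innate lymphoid cells (ILC2) and gamma-delta T cells carried Cxcr6. Cxcr3 was carried mainly by T cells, with lower levels in NK cells. Cxcl10 was spread thinly over tumour cells, T cells and myeloid cells, and Cxcl9 was rare. Levels are in CPM, the gene's share of all UMIs of the summed cells on the usual CPM scale. They are compared between lineages or libraries for 1 gene at a time, not between genes.

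**Figure D1:**
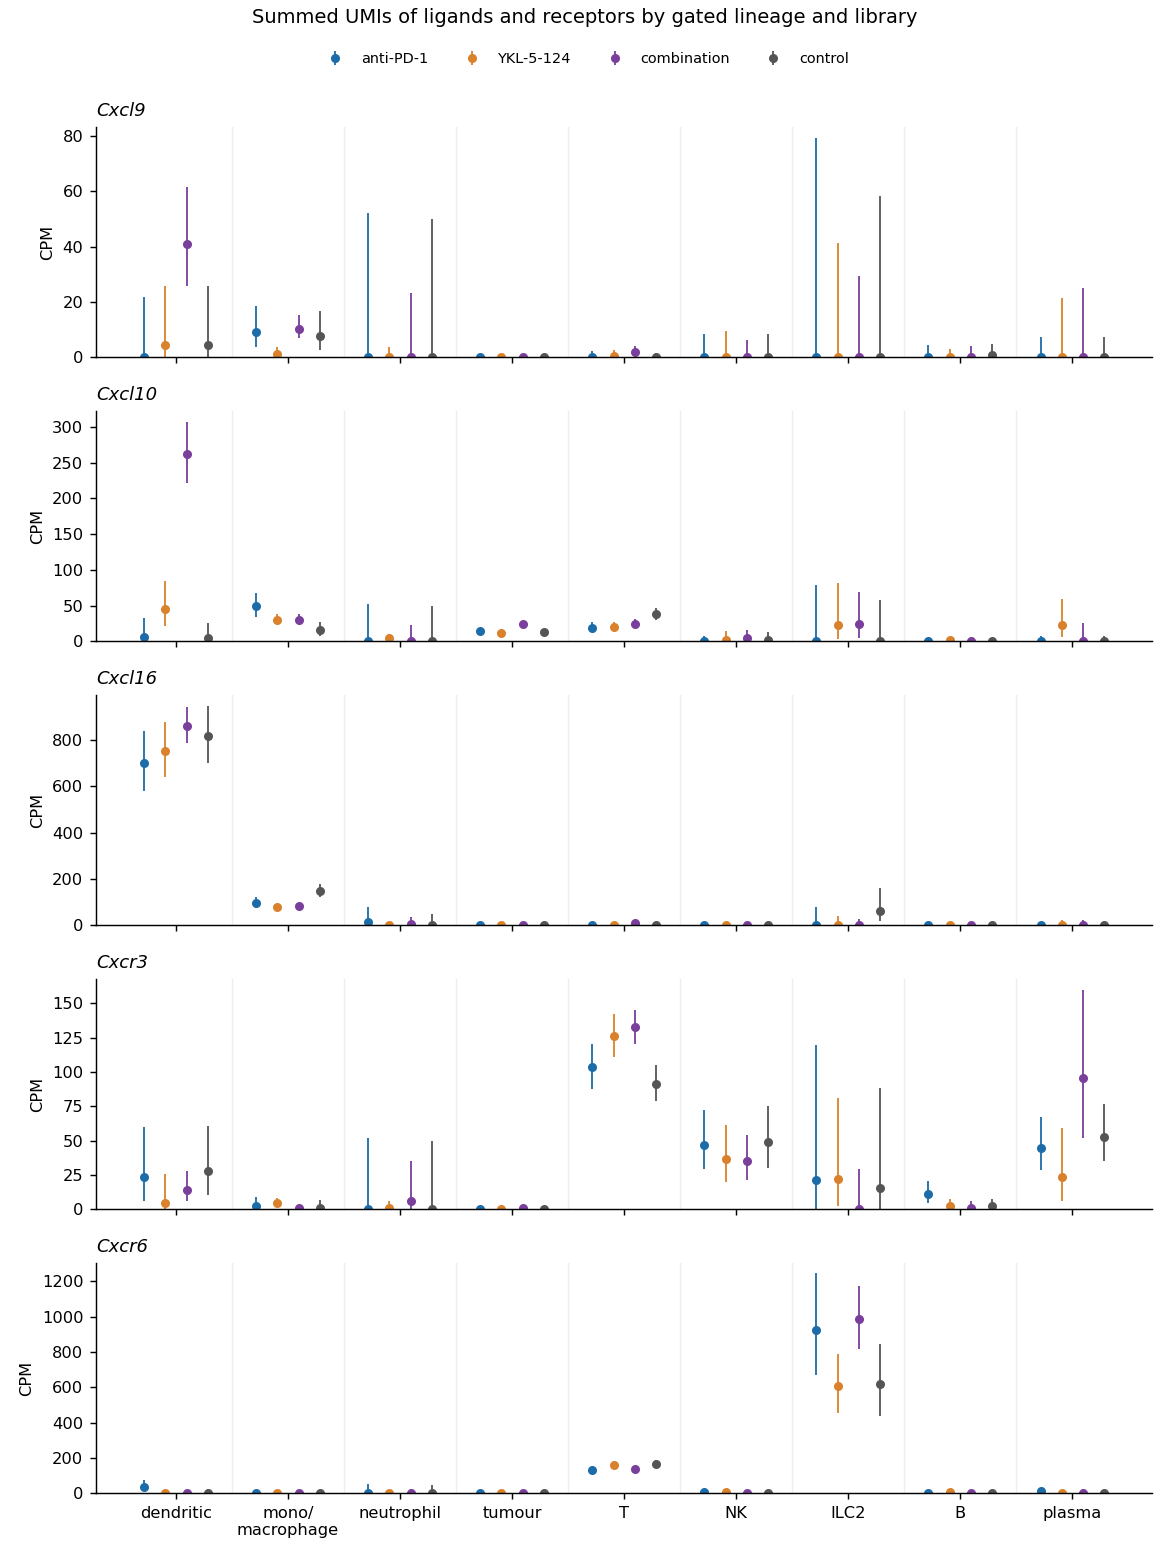
Level of each gene (CPM, UMIs summed over the cells of a lineage, one panel per gene with its own linear axis) in 9 gated lineages, with 1 point per library and exact Poisson 95% intervals. Cxcl16 stands highest in dendritic cells and Cxcr6 in ILC2 in all 4 libraries, and the 261 CPM of Cxcl10 in dendritic cells of the combination stand above the other 3 libraries.

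Cxcl16 marked the dendritic cells in all 4 libraries. Its level there was 700.2 CPM (95% interval 580.0 to 838) with anti-PD-1, 753 CPM (642 to 878) with YKL-5-124, 861 CPM (786 to 941) with the combination and 818 CPM (702 to 949) in control. The 4 intervals overlapped, and the treated over control ratios were 0.856 (0.672 to 1.09), 0.920 (0.739 to 1.15) and 1.05 (0.883 to 1.26). At these depths the intervals hold ratios from 0.672 to 1.26. At least 1 Cxcl16 UMI was found in 24 of 32, 31 of 37, 70 of 80 and 32 of 39 dendritic cells, or 75.0%, 83.8%, 87.5% and 82.1%. In NK cells, which should lack the gene, it was 0 of 234, 0 of 212, 0 of 311 and 0 of 252, where a limit of 3 cells allows shares of cells with a UMI of up to 1.28%, 1.42%, 0.965% and 1.19%. Dendritic cells were deeper, with medians of 5275, 5289, 6990 and 5248 UMIs against 1560 to 1768 in NK cells. After thinning every cell to 1000 UMIs the dendritic shares were 46.9%, 54.3%, 65.0% and 43.6%.

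Within the dendritic gate Cxcl16 differed with genes of mature dendritic cells. Cells with at least 2 of Ccr7 (the lymph node homing receptor), Fscn1 (an actin bundler of dendrites) and Ccl22 (a chemokine for regulatory T cells) had 1151, 1149, 1057 and 1237 CPM of Cxcl16 in the anti-PD-1, YKL-5-124, combination and control libraries. Dendritic cells with fewer of these had 361, 242, 311 and 301 CPM. The ratio of the first to the second set was 3.19 (2.13 to 4.88), 4.74 (3.04 to 7.73), 3.398 (2.50 to 4.71) and 4.10 (2.74 to 6.34), and the intervals of the sets did not overlap in any library. The split was added after the levels in dendritic cells had been seen, and its genes are themselves markers of the gate. The set with 2 or more of these genes made up 14 of 32, 27 of 37, 62 of 80 and 23 of 39 dendritic cells.

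Monocytes and macrophages held less Cxcl16 per UMI, 96.5, 81.5 and 85.6 CPM in the anti-PD-1, YKL-5-124 and combination libraries against 149 CPM in control. The ratios to control were 0.649 (0.479 to 0.876), 0.548 (0.432 to 0.697) and 0.576 (0.458 to 0.727), and all 3 treated libraries stood below the control. Dendritic cells exceeded this lineage by 7.26-fold (5.39 to 9.82), 9.25-fold (7.45 to 11.5), 10.1-fold (8.56 to 11.8) and 5.51-fold (4.33 to 7.02). Inside the lineage the level was highest in macrophages, gated on genes such as C1qa and C1qb (complement C1q chains) and Mrc1 (the mannose receptor). Macrophages had 298 CPM (221 to 395), 365 CPM (303 to 437) and 316 CPM (257 to 383) in the 3 treated libraries and 542 CPM (437 to 664.5) in control. The ratios were 0.551 (0.381 to 0.787), 0.674 (0.509 to 0.895) and 0.583 (0.435 to 0.781), so macrophages were lower in each treated library. These rest on 38, 68 and 64 treated and 44 control macrophages, each group from 1 library. Myeloid cells that passed no finer gate had 34.6, 41.1 and 71.6 CPM in the treated libraries and 60.3 CPM in control, and here the combination was not below control. Classical monocytes had 88.3, 45.3 and 26.1 CPM in the treated libraries, from 24, 78 and 96 cells, with 8 of 12, 13 of 19 and 6 of 12 UMIs in 1 cell. The 22 control cells had 0 UMIs, where 3 counts would be 28.7 CPM, so no order against control is read for them. Nonclassical monocytes, which patrol vessels, had 0, 2.62, 11.5 and 0 CPM. Endothelial cells, which line vessels, had 303, 58.3, 66.4 and 59.3 CPM from only 7, 2, 6 and 6 UMIs.

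Over all cells Cxcl16 was 20.8 CPM with anti-PD-1, 28.0 CPM with YKL-5-124, 52.4 CPM with the combination and 23.6 CPM in control. The combination stood 2.23-fold (1.98 to 2.51) above control, while within dendritic cells its ratio to control was 1.05 (0.883 to 1.26) and within macrophages 0.583 (0.435 to 0.781). The combination library held a larger share of dendritic cells, and of the monocyte and macrophage lineage, than control. For gated macrophages the shares were 1.42%, 1.69%, 1.64% and 1.30% in the anti-PD-1, YKL-5-124, combination and control libraries. There the intervals of the combination (1.26% to 2.08%) and control (0.946% to 1.74%) overlapped. Dendritic cells made up 1.20%, 0.922%, 2.05% and 1.15% of cells, and monocytes and macrophages 8.30%, 13.6%, 16.3% and 6.41%. Dendritic cells held 46.7%, 35.2%, 54.1% and 43.8% of all Cxcl16 UMIs in cells, and monocytes and macrophages 29.4%, 40.1%, 24.8% and 28.9%. Free RNA, read from barcodes of 10 to 100 UMIs, had 19.3, 23.8, 35.3 and 24.9 CPM of Cxcl16.

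T cells of the combination held 40 Cxcl16 UMIs in 17 cells (12.2 CPM, 8.70 to 16.6), against 4, 5 and 3 UMIs in the anti-PD-1, YKL-5-124 and control T cells. Those 17 cells also held a median of 6 UMIs of dendritic or monocyte and macrophage markers, against 2 in the other T cells of that library, at median depths of 5486 and 2301 UMIs. In CPM these markers summed to 2845 and 959, and its part in the Cxcl16 value was not tested. Tumour cells held 1.38, 2.08, 2.32 and 1.94 CPM of Cxcl16, and 0.868, 2.29, 1.95 and 2.48 CPM without shared barcodes, far below the dendritic cells and macrophages of the same library.

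**Figure D2:**
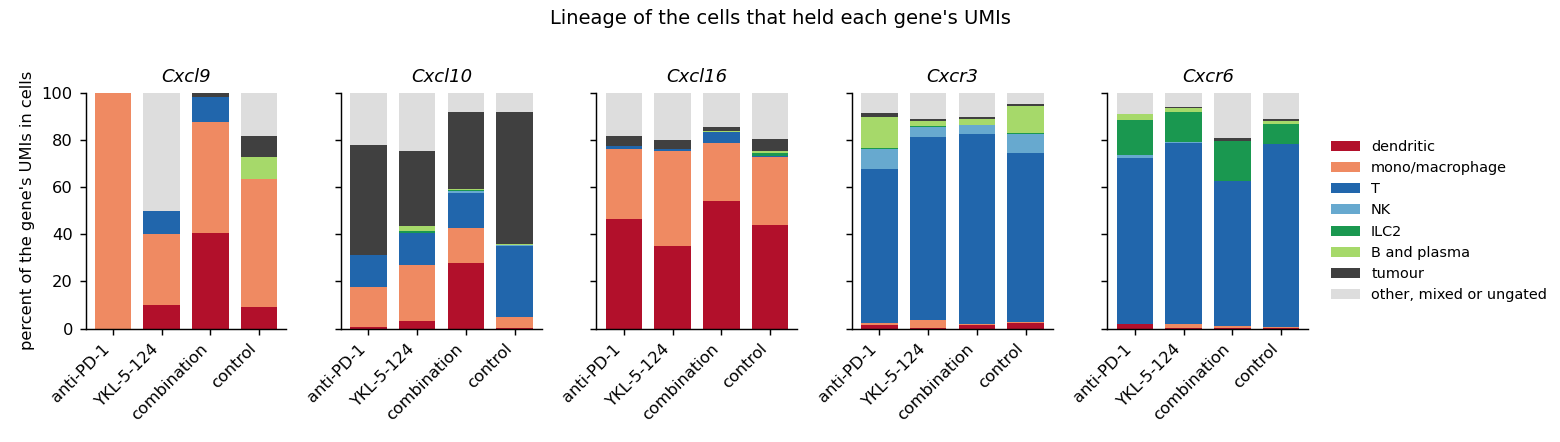
Share of each gene's UMIs in cells (percent, linear axis from 0) by the lineage of the cell that held them, with 1 bar per library and grey for cells of other lineages, of mixed markers or under the gate. Cxcl16 bars are mostly myeloid, receptor bars mostly T cells, and dendritic cells hold 27.6% of the Cxcl10 UMIs in the combination against 0.382% in control.

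Cxcl10 over all cells was 17.9 CPM (15.6 to 20.4), 17.9 CPM (15.9 to 20.01) and 31.2 CPM (28.6 to 34.0) in the anti-PD-1, YKL-5-124 and combination libraries and 15.4 CPM (13.6 to 17.3) in control. The combination was 2.03-fold (1.75 to 2.36) above control, and the single agents were at 1.17 (0.971 to 1.40) and 1.16 (0.982 to 1.38). Free RNA held 14.0, 21.5, 26.2 and 14.8 CPM. The UMIs were unevenly spread over cells, since at least 0.5 of them lay in 11, 14, 10 and 19 cells of the anti-PD-1, YKL-5-124, combination and control libraries. Single cells therefore weigh on each Cxcl10 value below, and the number they hold is given.

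In dendritic cells Cxcl10 was 5.88 CPM with anti-PD-1, 45.9 CPM (22.0 to 84.5) with YKL-5-124, 261 CPM (221 to 307) with the combination and 4.65 CPM in control. The combination's 147 UMIs came from 5 of 80 dendritic cells, with 90 UMIs in 1 of them, and control had 1 UMI in 1 of 39. Without the 90-UMI cell the combination still had 104 CPM from 57 UMIs. YKL-5-124 had 10 UMIs in 3 of 37 cells, 8 of them in 1 cell. The share of dendritic cells with a UMI was 3.12%, 8.11%, 6.25% and 2.56%, with exact intervals that overlap, so the combination stood out by the amount in a few cells and not by their number.

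In monocytes and macrophages Cxcl10 was 48.9 CPM (34.6 to 67.1), 30.5 CPM (23.8 to 38.5) and 30.5 CPM (24.1 to 38.0) in the anti-PD-1, YKL-5-124 and combination libraries and 15.4 CPM (7.94 to 26.9) in control. The ratios to control were 3.18 (1.63 to 6.68), 1.98 (1.07 to 4.02) and 1.98 (1.07 to 3.996), and all 3 treated libraries were higher. They rest on 38, 70 and 79 treated UMIs and 12 control UMIs, with 22, 35, 17 and 7 of them in 1 cell. Leaving out the richest cell of each library gave ratios of 3.20, 2.37 and 3.71 for Cxcl10. Macrophages did not share this order, with 42.6, 24.6 and 89.8 CPM in the treated libraries and 58.9 CPM in control. The higher values lay among myeloid cells that passed no finer gate, with 69.2, 45.3 and 22.5 CPM in the treated libraries and 2.51 CPM, or 1 UMI, in control.

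T cells had the opposite order, with 19.4 CPM (13.1 to 27.7), 19.8 CPM (14.1 to 26.9) and 24.7 CPM (19.6 to 30.7) of Cxcl10 in the treated libraries and 37.8 CPM (29.9 to 47.1) in control. The ratios were 0.513 (0.325 to 0.791), 0.524 (0.349 to 0.775) and 0.653 (0.473 to 0.902). Free RNA had intervals of 10.2 to 18.9, 17.0 to 26.9, 21.2 to 32.0 and 10.98 to 19.5 CPM in the anti-PD-1, YKL-5-124, combination and control libraries. The T cell levels with YKL-5-124 and the combination lay inside these, as did the monocyte and macrophage levels with the combination and in control. B cells and NK cells lay below these intervals in every library, so the intervals do not set the background inside a cell. The part of free RNA in the T cell and myeloid levels was not tested. One control T cell held 25 of 79 UMIs, and without the richest cell of each library the Cxcl10 ratios were 0.326, 0.539 and 0.873. The combination value also turned when lineages were taken from clusters, to 1.38. B cells had 0 to 1.70 CPM and NK cells 0 to 5.25 CPM, so the T cell level was above that of B cells and NK cells in every library. Among T cell subsets regulatory T cells, the suppressive lineage set by Foxp3, had 36.5, 93.4 and 37.7 CPM in the treated libraries and 152 CPM (87.1 to 247) in control, from 4, 17, 22 and 16 UMIs. T cells with Cxcl10 had a median of 1 or 2 myeloid marker UMIs in every library, as did those without.

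Tumour cells held 14.0 CPM (11.4 to 17.0), 11.6 CPM (9.40 to 14.2) and 24.0 CPM (20.6 to 27.8) of Cxcl10 in the anti-PD-1, YKL-5-124 and combination libraries and 13.5 CPM (11.5 to 15.9) in control. The ratios were 1.04 (0.796 to 1.34), 0.858 (0.656 to 1.12) and 1.77 (1.41 to 2.22), with 44 of the combination's 176 UMIs in 1 cell. Without barcodes shared between libraries the levels were 9.55, 7.15 and 27.7 CPM against 16.8 CPM, and the ratios became 0.568 (0.332 to 0.938), 0.425 (0.256 to 0.687) and 1.65 (1.15 to 2.36). Keeping the deepest copy of each shared barcode gave 0.997, 0.813 and 1.78. The values for the single agents thus depended on how shared barcodes were treated, and that for the combination stayed above 1 in each of these. At least 1 UMI was found in 10.5%, 9.41%, 10.5% and 10.2% of tumour cells, which had medians of 5234 to 6662 UMIs. At 1000 UMIs per cell these shares were 0.528%, 0.765%, 0.552% and 1.09%, close to the 0 to 0.413% in NK cells. The tumour level was also within or below the interval of free RNA in every library. That interval gives the make-up of free RNA and not its amount inside a cell, and B cells and NK cells lay below it. The part of free RNA in the tumour level was not tested, and the level summed over tumour cells is not read as expression. Single tumour cells held up to 5, 4, 44 and 21 UMIs. Tumour cells held 46.4%, 32.0%, 33.1% and 56.1% of the Cxcl10 UMIs in cells.

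**Figure D3:**
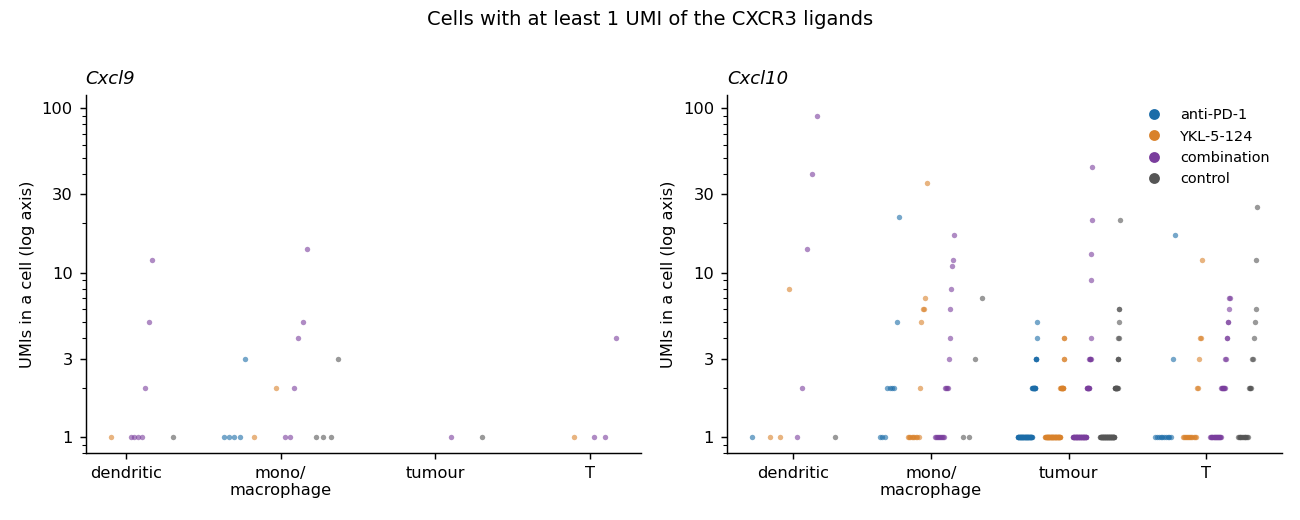
UMIs of Cxcl9 and Cxcl10 per cell (log axis, 1 point per cell with at least 1 UMI) in dendritic cells, monocytes and macrophages, tumour cells and T cells, coloured by library. Most cells hold 1 UMI, and the highest Cxcl10 values are 90 UMIs in a dendritic cell and 44 UMIs in a tumour cell, both of the combination.

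Cxcl9 was near the limit of detection, with 7, 10 and 57 UMIs in 5, 5 and 17 cells of the anti-PD-1, YKL-5-124 and combination libraries and 11 UMIs in 8 cells of control. The ratio of the combination to control over all cells was 5.19 (2.69 to 10.97). Dendritic cells of the combination held 23 UMIs in 7 cells (40.9 CPM, 25.9 to 61.4). Dendritic cells had 0 UMIs with anti-PD-1, where 3 counts would be 17.7 CPM, and 1 UMI each with YKL-5-124 and in control. Monocytes and macrophages had 9.01, 1.31, 10.4 and 7.69 CPM, with 14 of the combination's 27 UMIs in 1 macrophage. The macrophage with 14 Cxcl9 UMIs also held 17 of Cxcl10, and the dendritic cell with 90 Cxcl10 UMIs held 12 of Cxcl9. In the combination, 9 of 17 cells with Cxcl9 also had Cxcl10 (52.9%), against 3.75% of cells without Cxcl9, and those 9 cells had a median of 7115 UMIs against 2193 over all cells. In the other libraries 0 of 5, 1 of 5 and, in control, 1 of 8 cells with Cxcl9 had Cxcl10.

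Cxcr3 was carried mainly by T cells, which held 65.3%, 77.5%, 80.6% and 72.1% of its UMIs in cells. T cells had 103 CPM (88.0 to 121), 126 CPM (111 to 143) and 132 CPM (120.3 to 145) in the anti-PD-1, YKL-5-124 and combination libraries and 91.3 CPM (78.8 to 105) in control. The ratios were 1.13 (0.912 to 1.40), 1.38 (1.14 to 1.67) and 1.45 (1.22 to 1.73). The intervals of the YKL-5-124 and combination libraries lay above that of control, and that of anti-PD-1 overlapped it. At least 1 UMI was found in 15.5%, 17.2%, 21.7% and 12.9% of T cells, at median depths of 2182, 1997, 2312 and 1953 UMIs. Tumour cells, which should lack the receptor, had 0.570%, 0.387%, 0.753% and 0.352% at far greater depth. Thinned to 1000 UMIs the T cell shares were 8.38%, 6.46%, 9.82% and 6.53%, so the higher share with YKL-5-124 was not seen at equal depth.

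NK cells held Cxcr3 at 47.1 CPM (29.2 to 72.0), 36.7 CPM (20.1 to 61.6), 35.0 CPM (21.4 to 54.0) and 49.0 CPM (30.4 to 75.0). The 4 intervals overlapped, and the ratios to control were 0.961 (0.499 to 1.85), 0.748 (0.352 to 1.54) and 0.713 (0.367 to 1.38). T cells exceeded NK cells by 2.19-fold, 3.43-fold, 3.79-fold and 1.86-fold in the anti-PD-1, YKL-5-124, combination and control libraries. Plasma cells, the antibody secretors, were another site, at 45.1, 23.3, 95.4 and 53.0 CPM from 23, 4, 14 and 27 UMIs, with 5 of 15 cells of the combination holding it. In control 1 plasma cell held 8 of the 27 UMIs. Plasma cells with a shared barcode were 6 of 31, 1 of 14, 6 of 15 and 3 of 36, and these values include them. B cells had 10.9, 2.55, 1.13 and 2.63 CPM. Free RNA held 21.9, 26.0, 39.4 and 16.0 CPM of Cxcr3, above the level in B cells and tumour cells in all 4 libraries.

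Among T cell subsets Cxcr3 split by state. CD8 T cells with effector genes such as Gzmb (granzyme B) and Ccl5 had 133 CPM (94.7 to 181), 250.3 CPM (207 to 300.4) and 202 CPM (169 to 239) in the treated libraries and 120.1 CPM (88.9 to 159) in control. Naive CD8 T cells had 21.8, 7.05, 25.7 and 9.61 CPM. The effector to naive ratio was 6.07 (2.56 to 17.5), 35.5 (9.61 to 297), 7.87 (3.88 to 18.6) and 12.5 (4.04 to 62.7), wide because naive cells had 2 to 8 UMIs. Against control, CD8 effector cells were at 1.10 (0.708 to 1.71), 2.08 (1.48 to 2.97) and 1.68 (1.20 to 2.38). The share of these cells with Cxcr3 was 30.9%, 52.7%, 44.3% and 30.1%, and after thinning 18.7%, 17.6%, 17.3% and 8.26%. All 3 treated thinned shares were above that of control, with intervals that overlapped its interval (3.85% to 15.1%). This is the direction of the higher CPM with YKL-5-124 and the combination. Anti-PD-1, at 1.10 by CPM, had the highest thinned share. The difference in thinned share was not tested.

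Regulatory T cells showed the opposite order. Cxcr3 there was 237 CPM (155 to 347), 121 CPM (75.8 to 183) and 188 CPM (155 to 227) in the treated libraries and 352 CPM (248 to 486) in control. The ratios to control were 0.673 (0.391 to 1.14), 0.343 (0.193 to 0.597) and 0.534 (0.365 to 0.798). They rest on 31, 52 and 126 treated and 30 control cells. At least 1 UMI was found in 11, 13 and 43 of the treated and 14 of the control cells, the highest share in control. After thinning the treated shares were 24.1%, 13.3% and 16.7%, all above the share of control (3 of 25 cells), so the thinned shares do not keep the order. In effector T cells with no co-receptor UMI the level was 174, 174, 186 and 179 CPM, with ratios of 0.968 (0.633 to 1.47), 0.972 (0.661 to 1.43) and 1.04 (0.731 to 1.48). CD4 T cells with effector genes had 538, 212 and 248 CPM of Cxcr3 in the treated libraries and 415 CPM in control, from only 11, 6, 20 and 10 UMIs. Regulatory T cells were 1.16%, 1.30%, 3.22% and 0.887% of all cells, so the combination held the largest share of them.

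**Figure D4:**
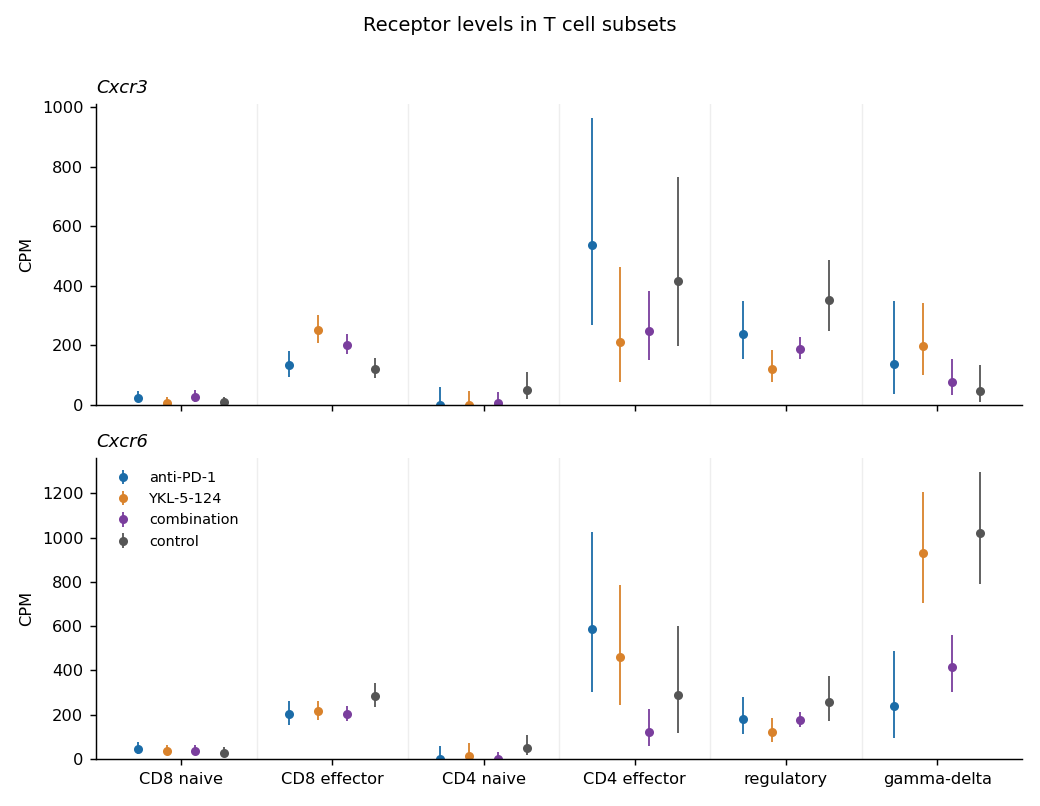
Level of Cxcr3 and Cxcr6 (CPM, linear axes) in 6 T cell subsets, with 1 point per library and exact Poisson 95% intervals. Naive CD8 cells stay under 50 CPM of each receptor, CD8 effector cells hold 120.1 to 250.3 CPM of Cxcr3, and Cxcr6 is highest in gamma-delta T cells of the YKL-5-124 and control libraries.

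Among lineages Cxcr6 was highest in ILC2, the innate lymphocytes that make type 2 cytokines, at 924 CPM (669 to 1245), 606 CPM (456 to 791) and 985 CPM (820 to 1175) in the treated libraries and 617 CPM (439 to 844) in control. A UMI was found in 16 of 21, 16 of 31, 31 of 48 and 19 of 31 of these cells, or 76.2%, 51.6%, 64.6% and 61.3%. Of these cells 4, 7, 13 and 12 were near the limits of the gate, and ILC2 held a median of 2 UMIs of T cell markers. ILC2 exceeded T cells by 6.98-fold (4.90 to 9.74), 3.76-fold (2.77 to 5.03), 7.19-fold (5.85 to 8.79) and 3.65-fold (2.55 to 5.09). ILC2 were 0.785%, 0.772%, 1.23% and 0.916% of cells, yet held 14.8%, 12.7%, 16.9% and 8.57% of the Cxcr6 UMIs in cells.

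T cells held most of the Cxcr6 UMIs, 70.4%, 76.5%, 61.3% and 77.8%. Their level was 132 CPM (115 to 152), 161 CPM (144 to 180) and 137 CPM (125 to 150.3) in the treated libraries and 169 CPM (152 to 188) in control. The ratios were 0.783 (0.656 to 0.932), 0.952 (0.817 to 1.11) and 0.810 (0.703 to 0.933). With lineages taken from clusters the anti-PD-1 and combination ratios for Cxcr6 turned to 1.02 and 1.253. The T cells of the clusters are another set of cells than the gated ones. The cluster named ILC2 held 37, 83, 80 and 78 cells, more than the ILC2 gate, with Cxcr6, Tcrg-C1 and Trdc among its leading genes. Its part in the turned ratios was not tested. The shares of gated T cells with a UMI were 15.5%, 17.7%, 18.7% and 14.4%, with control lowest. No direction across libraries is therefore read from this receptor in T cells as a whole. NK cells had 8.97, 5.24, 0 and 0 CPM, where 3 counts would be 6.73, 7.87, 5.25 and 7.01 CPM, so Cxcr6 separated T cells from NK cells far more than Cxcr3 did. In the combination 18.3% of Cxcr6 UMIs lay in cells with markers of more than 1 lineage, against 7.91% in control.

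CD8 effector cells held 202 CPM (155 to 260), 215 CPM (175 to 262) and 202 CPM (169 to 239) of Cxcr6 in the treated libraries and 284 CPM (235 to 341) in control. The ratios were 0.711 (0.513 to 0.977), 0.758 (0.573 to 0.999) and 0.710 (0.550 to 0.918). The share of these cells with a UMI was 36.2%, 38.5% and 32.3% in the treated libraries and 31.9% in control, and after thinning 22.0%, 16.5% and 17.9% against 16.5%. The lower CPM was thus not seen by share, and no direction is read. Naive CD8 cells had 43.7, 35.2, 35.3 and 28.8 CPM. Gamma-delta T cells, many of which make interleukin 17 in mouse lung, had 238 CPM (95.6 to 490), 932 CPM (706 to 1207) and 416 CPM (301 to 560.3) against 1020.3 CPM (791 to 1296) in control. By CPM, anti-PD-1 and the combination were below the other libraries without overlap of the intervals. They rest on 13 and 41 cells, against 28 with YKL-5-124 and 29 in control. The anti-PD-1 value was 7 UMIs in 2 cells, and 1 control cell held 16 of 67 UMIs. The share of cells with a UMI was 15.4% (1.92% to 45.4%) with anti-PD-1 and 46.3% (30.7% to 62.6%) with the combination. Control had 58.6%, and both intervals overlapped its interval (38.9% to 76.5%). After thinning the shares were 8.33% and 25.6%, against 14 of 28 control cells. Both thinned intervals overlapped that of control (30.6% to 69.4%). The shares with anti-PD-1 and the combination were thus below control, in the direction of the CPM. The difference in share was not tested, and overlap of intervals does not decide it. Regulatory T cells had 182 CPM (111 to 282), 121 CPM (75.8 to 183), 176 CPM (144 to 214) and 257 CPM (169 to 374).

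Cxcr6 was more frequent in T cells with Cxcr3 than in those without. Among T cells with Cxcr3, 33.7%, 35.4%, 32.2% and 29.1% also had Cxcr6, against 12.2%, 14.1%, 14.9% and 12.2% of T cells without Cxcr3. Cells with both were deeper, with medians of 2438, 3613, 3619 and 2176 UMIs. Inside CD8 effector cells 12 of 29, 24 of 48, 23 of 70 and 12 of 34 cells with Cxcr3 had Cxcr6, against 33.8%, 25.6%, 31.8% and 30.4% of those without, a gap under 10 percentage points except with YKL-5-124.

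**Figure D5:**
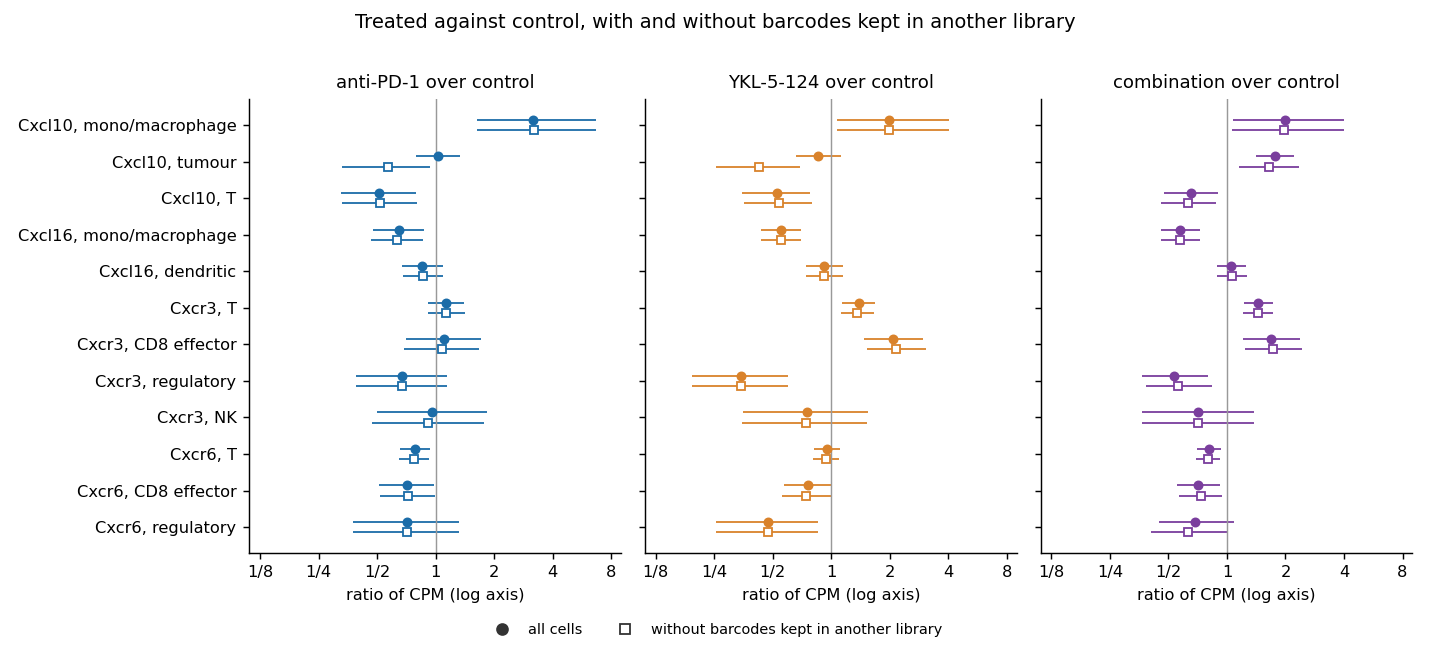
Treated over control ratio of CPM (log axis, exact 95% intervals) for 12 pairs of gene and cell type, for all cells (filled circles) and without barcodes kept in another library (open squares). The pairs of symbols lie together except for Cxcl10 in tumour cells, where anti-PD-1 is 1.04 with and 0.568 without shared barcodes.

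For lineages with at least 100 cells in each library, size was also read by 1 rule, a 1.5-fold difference from control after adding 10 CPM, for genes with a mean of at least 10 CPM. It measures size and tests nothing. In T cells, where 2.88%, 6.35% and 6.4% of 6840 genes passed it in the anti-PD-1, YKL-5-124 and combination libraries, Cxcl10 was lower with both single agents, while Cxcr3 and Cxcr6 did not pass. In monocytes and macrophages, where 10.2%, 7.58% and 6.6% of 6502 genes passed, Cxcl10 was higher in all 3 comparisons. There Cxcl16 was lower with YKL-5-124 and the combination, and with anti-PD-1 it was just inside the limit at a log2 ratio of -0.57. In tumour cells, where 0.426%, 0.392% and 1.46% of 8930 genes passed, Cxcl10 passed in none and was at log2 0.53 for the combination. In NK cells, where 16.2%, 17.5% and 15.6% of 6752 genes passed, Cxcr3 passed in none. The other genes of the 5 were under the minimum in these lineages, and all 5 were under it in B cells.

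The other genes of the axes, 41 listed of which 40 were in the table, were read by the same rule. In T cells 32 were measured, and 0, 1 and 2 were higher and 0, 0 and 1 lower in the anti-PD-1, YKL-5-124 and combination libraries. Over all genes 2.88%, 6.35% and 6.4% passed in T cells, and nothing particular to the list is read from these counts. Gnai2, the inhibitory G protein alpha subunit through which chemokine receptors signal, had 299, 388 and 458 CPM in treated T cells and 213 CPM in control. Its ratios were 1.40 (1.23 to 1.60), 1.82 (1.62 to 2.05) and 2.15 (1.93 to 2.39). In NK cells Gnai2 was at 395, 383 and 415 CPM against 234 CPM, at least 1.64-fold higher in each treated library, and in monocytes and macrophages the ratios were 1.09, 1.17 and 1.24. Nfkb1, an NF-kappa B subunit, was at 113 CPM in T cells of the combination against 63.1 CPM in control. Ccl5, a chemokine made by effector T cells, was at 4175 CPM there against 6279 CPM, the 1 list gene lower in T cells.

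In monocytes and macrophages 31 of the list were measured, with 2, 1 and 1 higher and 3, 3 and 0 lower, beside 10.2%, 7.58% and 6.6% of all genes. Nothing particular to the list is read from these counts either. Ccl5 stood out with anti-PD-1, at 292 CPM against 64.1 CPM in control, a ratio of 4.56 (3.34 to 6.32). Rela, the NF-kappa B p65 subunit, was at 36.0 CPM with anti-PD-1 and 26.6 CPM with the combination against 12.8 CPM in control. Irf1, an interferon-induced activator of Cxcl9 and Cxcl10, was at 51.0 CPM with YKL-5-124 against 85.8 CPM in control, and Adam10 at 55.8 CPM against 33.3 CPM. Tnf, Cd69, S1pr1 and Prdm1 were the other list genes lower with 1 or both single agents, each under 40 CPM in control. In tumour cells 19 were measured, with 1, 0 and 2 higher and none lower, beside 0.426%, 0.392% and 1.46% of all genes. The higher ones were Ccl5 (51.3 CPM with anti-PD-1 and 45.6 CPM with the combination against 22.5 CPM) and Rac2. These tumour values include shared barcodes, and the part of free RNA in them was not tested. They are not read as expression by tumour cells.

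In NK cells 28 were measured, with 4, 3 and 7 higher and 2, 1 and 3 lower. Ifng, which encodes the interferon gamma that induces the CXCR3 ligands, had 94.5 CPM in NK cells of the combination against 175 CPM in control, a ratio of 0.539 (0.373 to 0.775). Irf1 was at 62.9 CPM with YKL-5-124 and 56.0 CPM with the combination against 138 CPM in control NK cells. Eomes, a T-box regulator of NK cells, was at 171 CPM in the combination against 107 CPM. Klf2, a regulator of lymphocyte trafficking, was at 119 CPM with the combination against 194 CPM in control. Nfkb1, Adam10, Adam17, Pik3cg and S1pr1 were among the list genes higher in at least 1 comparison, and Rela and S1pr1 were lower with anti-PD-1, all at 83.0 CPM or less. With 15.6% to 17.5% of all genes past the rule in NK cells, the list's 6, 4 and 10 of 28 are given beside that background, and nothing particular to the list is read from them.

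Over 9 lineages pooled from the 4 libraries, the genes most like each member in log2 level were listed as a description, since the points share libraries and depth. Cxcr6 was most like Pdcd1, which encodes PD-1 (r = 0.997), then Tnfsf8, Podnl1, Tnfrsf25 and Lgals7, all highest in ILC2. Cxcr3 was most like F2rl1 (r = 0.949), Cd226, Sh2d1a, Ms4a4b and Cd7. Cxcl16 was most like Vwa5a (r = 0.9502), Zmynd15, Cst3, Dnah2 and Ube2l6, of which Zmynd15 is the gene that overlaps it on the other strand. Cxcl10 was most like Tnfsf9 (r = 0.951), Mvd, Cd209a, Ccl17 and Nccrp1, and Cxcl9 like Papss2 (r = 0.994), H2-M2, Ifi205, Cd209a and Nccrp1. For Cxcl9 and Cxcl10 the pooled dendritic level came mainly from the combination. There 1 dendritic cell held 90 Cxcl10 and 12 Cxcl9 UMIs, against 57 and 11 in the other dendritic cells of that library. The 5 genes listed for each ligand were highest in dendritic cells.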

How the data were processed

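The authors deposited whole-number UMI counts for each gene in each barcode, not normalized. The submitters' processing notes list Cell Ranger, bcl2fastq and hg19, and the matrices carry software version 3.0.0, per the file headers. The feature table holds mouse Ensembl IDs, so the build behind the counts is unclear. All matrices were mapped to samples, leaving 0 columns unmapped.

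Barcodes with 500 or more UMIs, 300 or more genes and no more than 10% mitochondrial UMIs were cells. Doublets were scored with Scrublet; because its own cut marked fewer than 0.5% of cells, the top scores, at 0.8% per 1000 cells, were removed (60, 138, 131 and 97 cells). Lineage gates took cells with at least 2 markers and 3 marker UMIs of a lineage and a 2-fold lead in scaled score over any rival. CPM carry exact Poisson intervals, ratios exact conditional binomial ones and shares exact Clopper-Pearson ones, all at 95%. With 1 library per group no test was run. The interval and size rule were tested on simulated Poisson counts, which lack the uneven spread of UMIs over cells. In T cells, monocytes and macrophages and tumour cells the rule called 7.46% to 37.3% of simulated 1.5-fold changes. A gene that does not pass can therefore still differ by 1.5-fold. Alternatives covered the UMI and mitochondrial limits, a stricter gate, clusters, doublets kept, equal weight per cell, thinning, the richest cell left out, no filter on low values, pseudocounts of 1 and 50 CPM and, chosen after seeing the data, shared barcodes. Named genes were the 5 members, the 5 genes most like each over lineages, and list genes past 1.5-fold outside B cells, of which 1 is counted but not reported here. Members and lists were chosen with earlier results of these data known. Tools were Python 3.11.15, SciPy 1.17.1 and Scanpy 1.11.5.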

Additional observations from a re-analysis of the deposited data

Results flagged for a closer look

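Ratios to control that lay on opposite sides of 1 in different cell types or T cell subsets, with intervals that exclude 1, were collected for the same treatment. CD8 effector and regulatory T cells are subsets of the gated T cells. The difference between the cell types was not tested, and each rests on 1 library per group. For Cxcl10 with anti-PD-1, the ratio was 3.18 in monocytes and macrophages, against 0.513 in T cells and 0.239 in regulatory T cells. For Cxcl10 with YKL-5-124 it was 1.98 in monocytes and macrophages, against 0.524 in T cells and 0.366 in CD8 effector T cells. For Cxcl10 with the combination it was 1.77 in tumour cells and 1.98 in monocytes and macrophages, against 0.653 in T cells and 0.247 in regulatory T cells. The tumour level lay inside the interval of free RNA, and the Cxcl10 value of T cells was 0.873 without the richest cell of each library and 1.38 with lineages from clusters. For Cxcr3 with YKL-5-124 it was 1.38 in T cells and 2.08 in CD8 effector T cells, against 0.343 in regulatory T cells. For Cxcr3 with the combination it was 1.45 in T cells and 1.68 in CD8 effector T cells, against 0.534 in regulatory T cells. The Cxcl10 values of regulatory T cells rest on 4, 22 and 16 UMIs in the anti-PD-1, combination and control libraries.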

How the results depend on the processing

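Of 189 treated over control ratios under an alternative, 180 stayed inside their counting interval, 6 moved outside it and 3 turned. Turned ratios crossed 1 where the main interval excluded 1. A ratio whose interval held 1 could cross 1 and still count among the 180 or the 6. Without barcodes kept in another library, Cxcl10 in tumour cells moved to 0.568 for anti-PD-1 and 0.425 for YKL-5-124. With each cell weighted equally, Cxcl10 in tumour cells was 1.26 for the combination, and Cxcr6 in T cells was 0.993, 1.15 and 0.937 in the anti-PD-1, YKL-5-124 and combination libraries. With lineages from clusters, Cxcl10 in T cells turned to 1.38 for the combination, and Cxcr6 in T cells to 1.02 for anti-PD-1 and 1.253 for the combination. The cause was not tested. Of 54 ratios in T cell subsets 53 were kept; at most 5% mitochondrial UMIs took Cxcr3 in regulatory T cells to 0.174 for YKL-5-124. Of 352 levels 317 were kept, of 84 source shares 73 and of 27 list counts 17. Lineages from clusters moved 21 levels and kept 23, and moved 9 source shares and kept 3; thinning moved 25 of 28 shares of cells. No paired analysis was possible because each group has 1 library, and no replicate could be left out. Depth limits Cxcl9, at 7 to 57 UMIs per library, and the dendritic, ILC2 and gamma-delta values rest on under 100 cells per library.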
